A study of Mus musculus with 8 samples.

Results

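The genes described here are 41 interferon-stimulated genes, a list set by name that covers the RNA sensors, transcription factors, antiviral effectors and antigen processing genes that respond to interferon. On the array, 39 of the 41 had a probe set annotated to that gene alone, out of 18193 genes measured in this way. Each gene was read at its brightest such probe set, the one with the highest mean over all 8 arrays. Ifi44 and Isg15, the latter on a probe set annotated to several symbols, were not analysed here. The values did not choose the genes, but the list was drawn up with earlier results of these data known.

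Expression was measured in bone marrow cells sorted for Cd11b, an integrin chain on granulocytes and monocytes, from mice of a mixed FVB and C57BL6 background aged 8 weeks. The 4 control samples are labelled E2F1-/-2+/+3f/f, so E2f1 was absent and E2f3 floxed in both groups. The 4 experimental samples are labelled Mxcre;E2F1-/-2-/-3f/f, which adds the loss of E2f2 and a Cre recombinase under the Mx promoter, itself a promoter that responds to interferon. Cre cuts out floxed DNA, so the floxed part of E2f3 was open to deletion in the experimental samples alone. Every mouse received 5 injections of 250 µg of pIpC, a synthetic double-stranded RNA that induces interferon and so switches on this Cre, and was killed 24 h after the last. There was no untreated group, so induction by pIpC was not measured, and the data show only how far these genes differed between treated animals. Cre was present in the experimental samples alone, so its effects and those of the E2f genotype cannot be told apart. The labels do not say that each sample came from a separate animal, and the p-values therefore reflect the spread of these 8 samples, whether technical or biological. The sort marker gene Itgam read between 11.25 and 11.90 on the log2 scale in all 8 arrays.

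Double-stranded RNA is sensed in the cell by RIG-I (Rigi) and MDA5 (Ifih1), which lead to the release of type I interferon. Interferon binds its receptor, and the receptor's kinases activate a complex that includes STAT2 and IRF9, which binds a promoter element called the interferon-stimulated response element, or ISRE. Interferon gamma acts mainly through another element, the gamma-activated sequence, or GAS. In myeloid cells these genes form a broad and usually transient antiviral programme, with USP18 among its feedback inhibitors.

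The promoters of these genes are shown first because they bear on how the genes are known to be switched on. RefSeq promoter windows of GRCm38.p6, from 250 bases before to 50 bases after a transcript's start, were at hand for 30 of the 41 genes. They were searched on both strands for an ISRE core (GAAANNGAA, with N any base) and for a GAS (TTCNNNGAA, which reads the same on both strands). The ISRE core lay in the windows of 17 of the 30 genes (56.7%), against 9.76% of 27025 genes. A GAS match lay in 6 of the 30 (20.0%), against 9.55% of all genes, and 20 of the 30 (66.7%) held either motif, against 17.9%. Of the 6 stretches shown, those of Ifit1, Ifit3 and Bst2 belong to genes that were very high in a single array. Those of Gbp2 and Tap1 belong to genes whose experimental arrays were high together, and the Tap1 stretch holds neither motif. That of Oas1a belongs to a gene with both features. Each is 170 bases long, ends at the base before the start site, and carries motif matches in capitals, the ISRE core reading TTCNNTTTC where it lies on the opposite strand.
Ifit1, chr19:34640719-34640888, plus strand: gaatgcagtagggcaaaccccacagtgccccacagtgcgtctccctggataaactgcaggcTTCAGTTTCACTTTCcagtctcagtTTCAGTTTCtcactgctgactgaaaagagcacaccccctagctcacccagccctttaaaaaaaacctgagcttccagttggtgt
Ifit3, chr19:34583359-34583528, plus strand: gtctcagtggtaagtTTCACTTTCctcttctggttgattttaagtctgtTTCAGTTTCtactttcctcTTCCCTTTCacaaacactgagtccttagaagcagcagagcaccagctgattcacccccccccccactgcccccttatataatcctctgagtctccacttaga
Bst2, chr8:71537473-71537642, minus strand: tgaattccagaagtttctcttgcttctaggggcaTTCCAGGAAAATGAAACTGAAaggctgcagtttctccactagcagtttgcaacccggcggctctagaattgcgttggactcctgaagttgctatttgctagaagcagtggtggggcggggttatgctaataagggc
Oas1a, chr5:120907526-120907695, minus strand: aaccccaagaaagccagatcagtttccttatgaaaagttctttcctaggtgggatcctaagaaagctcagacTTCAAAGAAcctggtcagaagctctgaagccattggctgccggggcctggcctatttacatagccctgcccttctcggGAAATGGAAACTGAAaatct
Gbp2, chr3:142620493-142620662, plus strand: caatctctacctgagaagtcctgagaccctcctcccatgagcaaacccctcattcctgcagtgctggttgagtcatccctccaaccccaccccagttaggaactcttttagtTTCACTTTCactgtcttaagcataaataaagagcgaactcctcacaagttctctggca
Tap1, chr17:34187386-34187555, plus strand: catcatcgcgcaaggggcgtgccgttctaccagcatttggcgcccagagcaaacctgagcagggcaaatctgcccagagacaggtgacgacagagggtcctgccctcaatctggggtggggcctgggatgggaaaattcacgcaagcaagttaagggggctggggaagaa
In Ifit1 and Oas1a neighbouring ISRE matches share 3 bases and so form longer runs of capitals, and in Bst2 the GAS match runs into a pair of ISRE matches. The windows of Tap1 and Psmb9, which start back to back, share 275 bases. Those of Ifit2, not shown, held no ISRE core and a GAS match at -241 bases from a start site. A match in these windows is a description of letters and not evidence that a factor was bound.

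Most of these genes were highest in the same array. Experimental replicate 3 lay above all 4 controls in 39 of the 39 genes (100%), against 29.2% of all 18193 genes. It was the highest of all 8 arrays in 34 of the 39 (87.2%), where it was the highest in 15.3% of all genes. The 5 others, Rigi, Gbp2, Iigp1, Psmb9 and Cxcl10, were highest in experimental replicate 2. In 13 of the 39 (33.3%) replicate 3 exceeded every other array by at least 1 log2 unit, a 2-fold difference, which 27 of all genes did (0.148%). Of the genes with a promoter window, the ISRE core lay in 5 of 9 with such a gap and in 10 of 19 without one. The 13 were the sensor gene Dhx58, the transcription factor gene Irf7, Ifit1, Ifit3, Oas1a, Oas3, Oasl1, Oasl2, Usp18, Mx1, Bst2, Rtp4 and Xaf1.

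The other 3 experimental arrays did not share this level. Replicate 2 lay above all controls in 25 of the 39 genes (64.1%, against 27.1% of all genes), replicate 4 in 11 (28.2%, against 33.1%) and replicate 1 in 7 (17.9%, against 26.9%). Replicate 1 was instead below all 4 controls in 22 of the 39 (56.4%, against 31.1% of all genes), and it was the lowest of all 8 arrays in 16 (41%), where it was the lowest in 17% of all genes. Replicate 4 lay below all controls in 11 genes (28.2%, against 22.5%) and replicate 2 in 4 (10.3%, against 28%). The experimental group thus held, under 1 label, an array with these genes high throughout and an array with most of them under the control range.

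**Figure D1:**
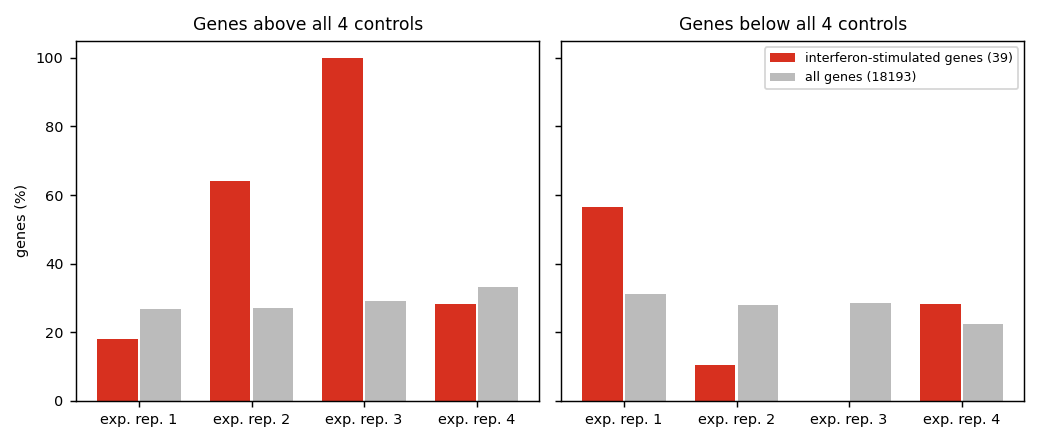
Percentage of genes (y axis, from 0) that lay above all 4 controls (left) or below all 4 controls (right) in each experimental array, for the 39 interferon-stimulated genes (red) and all 18193 genes (grey). Replicate 3 reaches 100% on the left and 0 on the right, while replicate 1 has 17.9% and 56.4%.

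Measured from the control mean of each gene, the median deviation of the 39 genes was 1.49 log2 units in experimental replicate 3, 0.52 in replicate 2, -0.09 in replicate 4 and -0.19 in replicate 1. The 4 control arrays lay between -0.13 and 0.16, and the median over all genes between -0.02 and 0.05 in every array. The spread within the experimental group was correspondingly wider. The median SD of the 39 genes was 0.25 over the controls and 0.76 over the experimental arrays (n = 4 each), against 0.14 and 0.18 for all genes. The experimental SD was the larger in 37 of the 39 (94.9%), and in 66.3% of all genes.

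**Figure D2:**
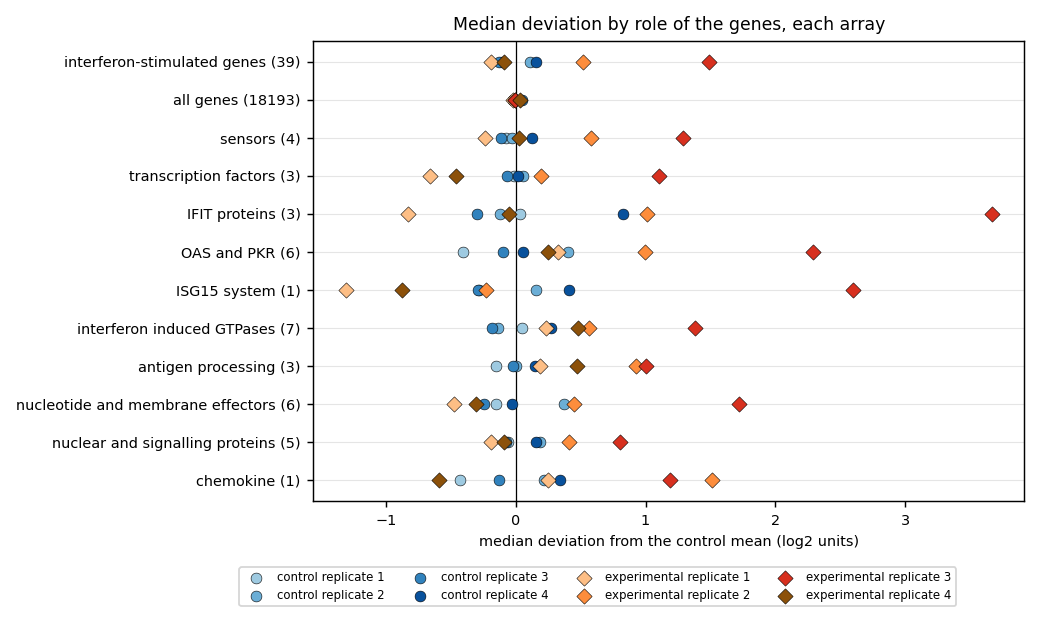
Median deviation from the control mean in log2 units (x axis) for each array (circles for controls, diamonds for experimental arrays), for the 39 genes, for all genes and for each role, with the number of genes in brackets. Experimental replicate 3 lies furthest to the right in every role but the chemokine, which is Cxcl10 alone, and reaches 3.67 for the IFIT proteins.

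Between the groups, the median difference of the 39 genes was 0.51 log2 units (experimental minus control), against 0.01 over all genes, and 33 of the 39 differences were positive. Few passed a test adjusted for the number of probe sets. With limma over all 45037 probe sets and Benjamini-Hochberg adjustment at 0.05, 1 of the 39 rose (2.56%), where 1.53% of all genes rose, and 0 fell, where 1.95% of all genes fell. At an unadjusted p under 0.05 limma gave 13 higher (33.3%, against 9.08% of all genes) and 0 lower (against 9.8%). In 4 of the 39 (10.3%) every experimental array lay above every control, namely Ifi47, Ifit2, Oas1a and Tap1, against 5.62% of all genes, and in 0 of them below, against 6.79%. Without experimental replicate 3 the median difference was 0.12, 25 of the 39 were positive, and limma called 0 higher and 0 lower (all genes 1.18% and 1.31%). At an unadjusted p under 0.05 that fit gave 10 higher (25.6%, against 9.02% of all genes) and 4 lower (10.3%, against 9.06%, so near the share of all genes).

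**Figure D3:**
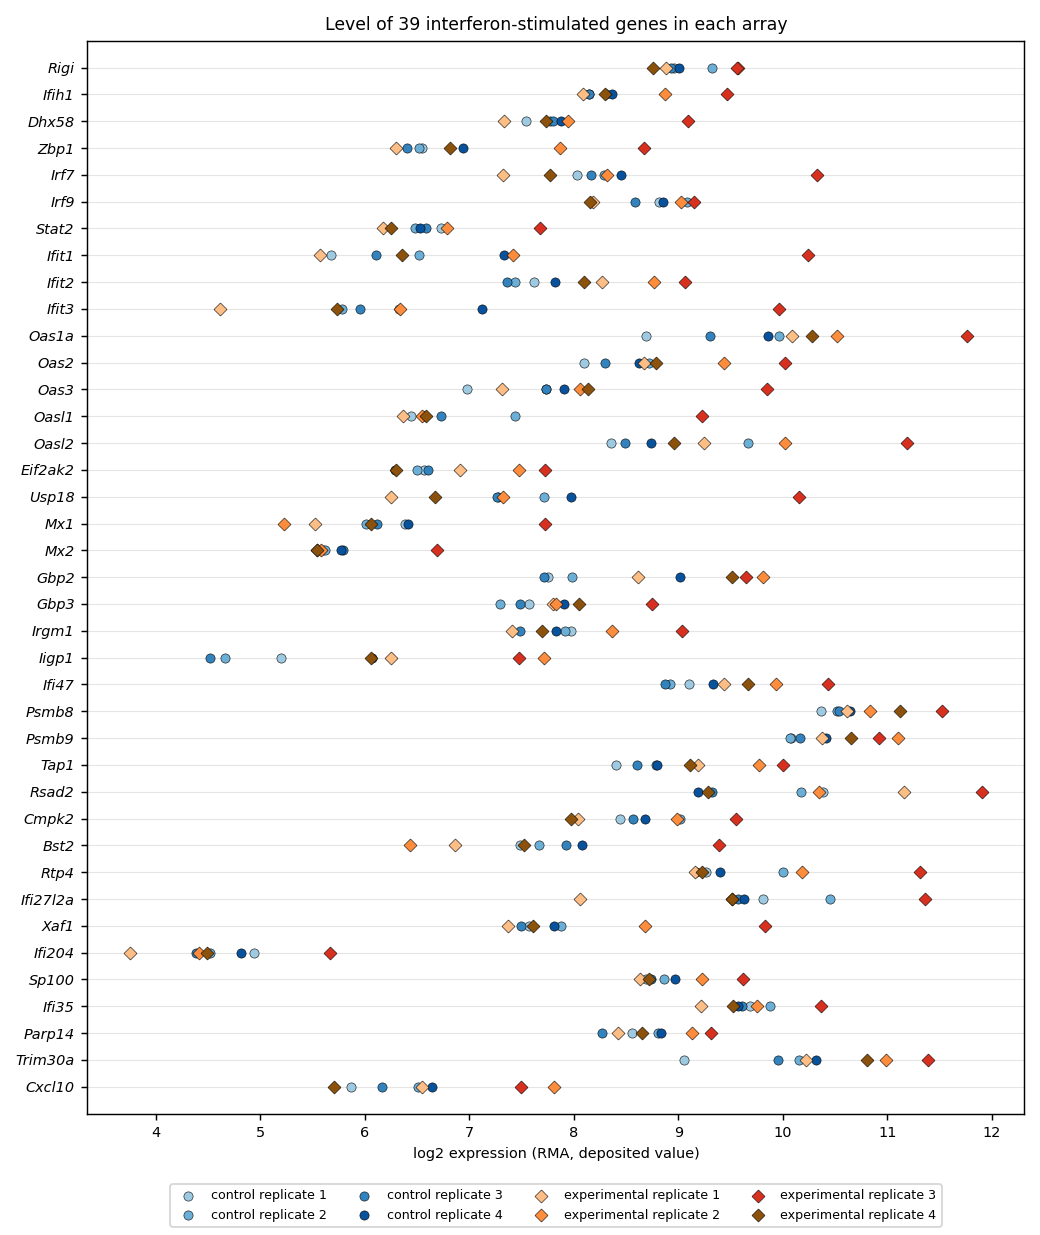
Deposited log2 value (x axis) of each of the 39 genes (rows) in each array, circles for the 4 controls and diamonds for the 4 experimental arrays. The red diamond, experimental replicate 3, is furthest right in 34 of the 39 rows, and in Ifit3 it lies at 9.96 against 7.12 for the next array.

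The sensors of foreign RNA and DNA followed this pattern with moderate size. Ifih1, which encodes the RNA helicase MDA5, read 8.30, 8.15, 8.15 and 8.36 in control replicates 1 to 4, and 8.09, 8.87, 9.47 and 8.30 in experimental replicates 1 to 4. Zbp1, a sensor of Z-form nucleic acids that can trigger cell death, read 6.41 to 6.94 in the controls and 6.30, 7.87, 8.67 and 6.81 in the experimental arrays. Replicates 2 and 3 were thus high for both genes, while replicates 1 and 4 lay within or below the control range. Dhx58, which encodes LGP2, a regulator of the other helicases, stood out in replicate 3 alone, at 9.09 against a highest other value of 7.95. Rigi, which encodes the RIG-I helicase, varied least of the 4, at 8.93 to 9.32 in controls and 8.76 to 9.57 in experimental arrays. For Rigi, 3 probe sets carried that symbol alone, and the dimmest gave a difference of the opposite sign. Group differences of the sensors ran from 0.14 for Rigi to 0.81 ± 0.43 (SE) for Zbp1 (limma, adjusted p = 0.385), and none passed.

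Of the transcription factors, Irf7, the factor that amplifies interferon alpha production, varied most. It read 8.03, 8.29, 8.17 and 8.45 in the controls and 7.32, 8.32, 10.33 and 7.77 in the experimental arrays. Replicates 1 and 4 were below every control and replicate 3 was 1.88 above the next array, so the groups overlapped and the difference of 0.20 ± 0.53 was within the spread (limma, adjusted p = 0.893). Stat2 and Irf9 encode parts of the ISRE-binding complex. Stat2 read 6.48 to 6.73 in controls and 6.17, 6.79, 7.68 and 6.25 in the experimental arrays. Irf9 read 8.59 to 9.09 in controls and 8.18, 9.03, 9.15 and 8.15 in the experimental arrays, the least raised of the 3 in replicate 3. In all 3, replicates 1 and 4 were below every control.

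The IFIT proteins, which bind foreign RNA and restrain its translation, held both the gene that rose and the genes that differed most in 1 array. Ifit2 read 7.62, 7.44, 7.37 and 7.82 in the controls and 8.27, 8.77, 9.06 and 8.09 in the experimental arrays. Every experimental array lay above every control, and the level rose from 7.56 ± 0.20 to 8.55 ± 0.45 (SD, n = 4 each), 1.99-fold or 0.99 ± 0.21 log2 units (SE, limma, adjusted p = 0.0386). The call was close to the threshold: without 1 array at a time the adjusted p lay between 0.0336 and 0.121 and passed only without experimental replicate 4, and without replicate 3 the difference was 0.82 (adjusted p = 0.0558).

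Ifit1 and Ifit3 had other patterns. Ifit1 read 5.68, 6.52, 6.11 and 7.33 in the controls and 5.57, 7.42, 10.24 and 6.36 in the experimental arrays. Ifit3, whose gene is next to Ifit2 on the chromosome, read 6.33, 5.79, 5.95 and 7.12 in the controls and 4.62, 6.34, 9.96 and 5.73 in the experimental arrays. Replicate 3 stood 4.40 log2 units (21.1-fold) above the mean of the other 3 experimental arrays for Ifit3 and 3.79 (13.8-fold) for Ifit1, the widest gaps of the 39 genes. The group differences were 0.99 ± 0.85 for Ifit1 (limma, adjusted p = 0.611) and 0.37 ± 0.94 for Ifit3 (adjusted p = 0.890), and without replicate 3 they were 0.04 and -0.73. Control replicate 4 was the highest control for all 3 IFIT genes.

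The OAS proteins make an oligoadenylate that activates RNase L, and Eif2ak2 encodes PKR, the kinase that halts translation when it binds double-stranded RNA. All 6 genes were highest in experimental replicate 3. Oas1a read 8.69, 9.97, 9.31 and 9.85 in the controls and 10.09, 10.52, 11.77 and 10.28 in the experimental arrays. The groups did not overlap, yet the difference of 1.21 ± 0.38 did not pass (limma, adjusted p = 0.140), and it was 0.84 without replicate 3. Oasl2, an OAS-like protein gene, differed by 1.04 ± 0.46 (adjusted p = 0.289) and overlapped through control replicate 2, at 9.67. Its chromosomal neighbour Oasl1, a translational inhibitor of Irf7, read 6.44, 7.44, 6.73 and 6.57 in the controls and 6.36, 6.54, 9.22 and 6.59 in the experimental arrays. There, the other 3 experimental arrays lay close together, within the control range or just under it, and replicate 3 stood apart. Oas2 and Oas3, also neighbours, differed by 0.79 and 0.75, and Eif2ak2 by 0.61, none past the threshold.

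Usp18 removes ISG15 from proteins and blocks signalling at the interferon receptor. It read 7.28, 7.71, 7.27 and 7.97 in the controls and 6.25, 7.32, 10.16 and 6.68 in the experimental arrays. Replicates 1 and 4 were below every control while replicate 3 was 10.6-fold above the mean of the other 3 experimental arrays. The group difference was 0.05 ± 0.71 with replicate 3 (limma, adjusted p = 0.984) and -0.81 without it (adjusted p = 0.162).

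Of the interferon-induced GTPases, Gbp2 and Iigp1 had the largest differences between the groups. The guanylate-binding protein Gbp2 read 7.75, 7.99, 7.71 and 9.02 in the controls and 8.62, 9.81, 9.64 and 9.51 in the experimental arrays. Iigp1, an immunity-related GTPase that attacks the vacuoles of parasites, read 5.20, 4.67, 4.52 and 6.07 in the controls and 6.25, 7.72, 7.48 and 6.06 in the experimental arrays. For both, the experimental arrays were high together and the overlap came from control replicate 4.

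The difference of Iigp1 was the largest of the 39, at 1.76 ± 0.44 (3.39-fold; limma, adjusted p = 0.0704), and that of Gbp2 was 1.28 ± 0.33 (2.43-fold; adjusted p = 0.0783). Without replicate 3 they were 1.56 and 1.20, so neither rested on that array alone. The probe set of Gbp2 is of a class that can bind related sequences, and its other probe set gave 1.23. Ifi47, another immunity-related GTPase, read 9.11, 8.92, 8.88 and 9.33 in the controls and 9.44, 9.93, 10.44 and 9.66 in the experimental arrays. Its groups did not overlap, and it differed by 0.81 ± 0.20 (adjusted p = 0.0732). With replicate number as a block, Gbp2 passed (adjusted p = 0.0277) and Iigp1 and Ifi47 did not (0.0809 and 0.0689). The labels do not state that arrays of the same number are pairs. With the style of the sample codes as a block, all 3 passed (Gbp2 0.0389, Iigp1 0.0493, Ifi47 0.0401).

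The Mx genes encode dynamin-like GTPases that block viruses, and Mx1 is the gene whose promoter gives the Cre transgene its name. Mx1 read 6.39, 6.01, 6.12 and 6.42 in the controls and 5.53, 5.23, 7.72 and 6.06 in the experimental arrays. Mx2 read 5.60, 5.62, 5.79 and 5.77 in the controls and 5.55, 5.58, 6.69 and 5.54 in the experimental arrays. In both genes replicate 3 alone lay above the control range, with replicates 1 and 2 below every control. Replicate 4 was within the control range for Mx1 and below every control for Mx2. The group differences were -0.10 for Mx1 and 0.15 for Mx2. Gbp3 and Irgm1, the last of the 7 GTPase genes, differed by 0.54 and 0.33 and did not pass.

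The antigen processing genes were the group least dependent on replicate 3. They lie side by side on chromosome 17 and encode 2 subunits of the immunoproteasome (Psmb8 and Psmb9) and a chain of the peptide transporter (Tap1). Their median difference was 0.58 with all arrays and 0.53 without replicate 3, where that of the transcription factors went from 0.14 to -0.38. Tap1 read 8.40, 8.79, 8.60 and 8.79 in the controls and 9.19, 9.77, 9.997 and 9.11 in the experimental arrays. Its groups did not overlap, and its difference was 0.87 ± 0.20 (limma, adjusted p = 0.0552), with adjusted p = 0.0293 with replicate number as a block. Of the 3 other Tap1 probe sets, all dimmer, 1 gave a difference of the opposite sign.

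Psmb9 read 10.07, 10.07, 10.16 and 10.42 in the controls and 10.37, 11.10, 10.92 and 10.65 in the experimental arrays, and Psmb8 read 10.37 to 10.64 and 10.62 to 11.52. Both overlapped narrowly, in each case through control replicate 4 and experimental replicate 1. They differed by 0.58 ± 0.16 (adjusted p = 0.0966) and 0.51 ± 0.18 (adjusted p = 0.175).

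The effectors that act on nucleotides and membranes disagreed among themselves. Rsad2, which encodes viperin, read 10.38, 10.18, 9.32 and 9.19 in the controls and 11.16, 10.35, 11.90 and 9.29 in the experimental arrays. Its neighbour Cmpk2, a mitochondrial nucleotide kinase, read 8.44, 9.01, 8.57 and 8.68 in the controls and 8.04, 8.99, 9.55 and 7.97 in the experimental arrays. In experimental replicate 1, Rsad2 was above every control and Cmpk2 was below every control, and the differences of the neighbours were 0.91 ± 0.51 and -0.04 ± 0.32. Neither passed.

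Bst2 encodes tetherin, which holds budding virus at the cell surface. It read 7.48, 7.66, 7.92 and 8.08 in the controls and 6.86, 6.44, 9.39 and 7.52 in the experimental arrays. Ifi27l2a, an interferon-induced membrane protein gene, read 9.81, 10.45, 9.57 and 9.63 in the controls and 8.06, 9.52, 11.36 and 9.51 in the experimental arrays. The other 3 experimental arrays of Ifi27l2a lay below every control and replicate 3 above them all, which gave a group difference of -0.25 ± 0.56 (limma, adjusted p = 0.870). Rtp4 and Xaf1, a chaperone of receptors and a regulator of cell death, differed by 0.51 and 0.68.

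Of the nuclear and signalling proteins, Trim30a, a ubiquitin ligase of the TRIM family, was high across the experimental arrays. It read 9.05, 10.15, 9.95 and 10.31 in the controls and 10.22, 10.99, 11.39 and 10.81 in the experimental arrays. Replicate 1 alone overlapped the controls, and the difference of 0.99 ± 0.30 did not pass (limma, adjusted p = 0.129) but did with replicate number as a block (adjusted p = 0.0172). Sp100, Ifi35 and Parp14 differed by 0.23, 0.03 and 0.26, and Ifi204 by -0.08. The chemokine gene Cxcl10, which draws in T and NK cells, read 5.87, 6.51, 6.17 and 6.64 in the controls and 6.55, 7.81, 7.49 and 5.71 in the experimental arrays. It was highest in replicate 2 and below every control in replicate 4.

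**Figure D4:**
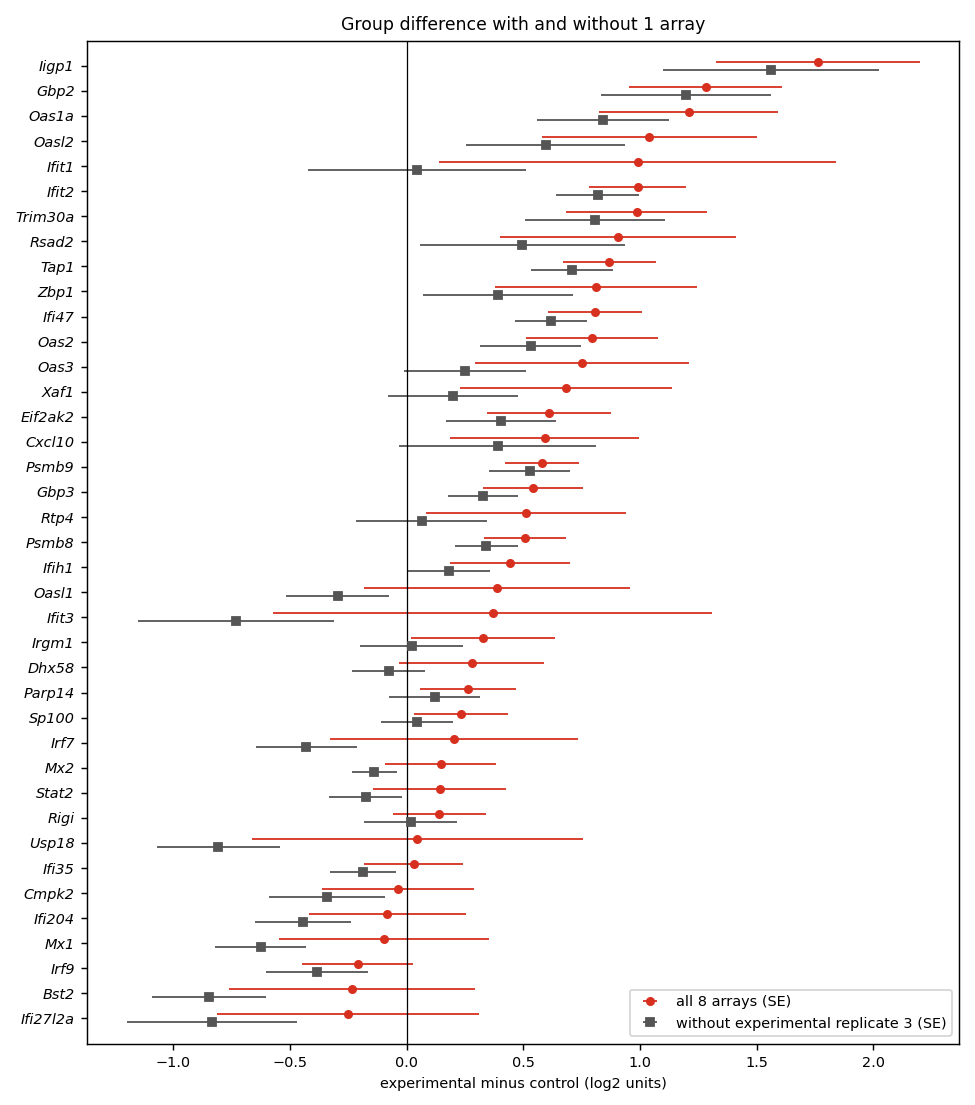
Experimental minus control in log2 units (x axis) for each of the 39 genes (rows, ordered by the difference), with all 8 arrays (red circles) and without experimental replicate 3 (grey squares); bars are the SE of the limma fit. Gbp2 moves from 1.28 to 1.20, while Usp18 moves from 0.05 to -0.81.

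The sample codes in the labels have 2 styles, a digit then a letter for replicates 1 and 2 of each group and a letter then a digit for replicates 3 and 4. Each style holds 2 arrays of each group, and the labels do not say what the style stands for. Within replicates 1 and 2 the median difference of the 39 genes was 0.26, with 24 positive. Within replicates 3 and 4, which include the array that stood apart, it was 0.74, with 38 positive, the exception being Irf9. None of the 39 passed within either style (all genes higher, 1.51% and 0.66%). These tests came from 1 fit to the arrays of both styles, with each gene's variance pooled over them. The SE was therefore the same in both styles, at 1.15 for Ifit3. The spread of experimental replicate 3 thus also entered the test within replicates 1 and 2, which was not made on those arrays alone. At an unadjusted p under 0.05 limma gave 7 higher in the first style (17.9%, against 9.45% of all genes) and 11 in the second (28.2%, against 10.6%), with 0 lower in both (against 9.17% and 7.3%).

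The values of some genes were alike in both styles and those of others were not. Ifit2 differed by 0.99 in both, Tap1 by 0.88 and 0.85, Trim30a by 1.00 and 0.97, and Gbp2 by 1.35 and 1.22. Ifi27l2a went from -1.34 to 0.84, Ifit3 from -0.58 to 1.31 and Usp18 from -0.71 to 0.80. Tested directly with limma as an interaction of group and style, 0 of the 39 passed (0.011% of all genes did) and 2 were past an unadjusted p of 0.05, Ifi27l2a (adjusted p = 0.597) and Mx1 (0.621). Those 2 are 5.13% of the 39, near the 4.71% of all genes with a positive interaction at that p. The coefficient of style itself called 0 of the 39 (all genes 1.77%), with 4 higher in letter-digit arrays at an unadjusted p under 0.05 (10.3%, below the 16% of all genes) and 0 lower (against 6.63%). Its median over the 39 genes was 0.23, and -0.03 without experimental replicate 3.

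**Figure D5:**
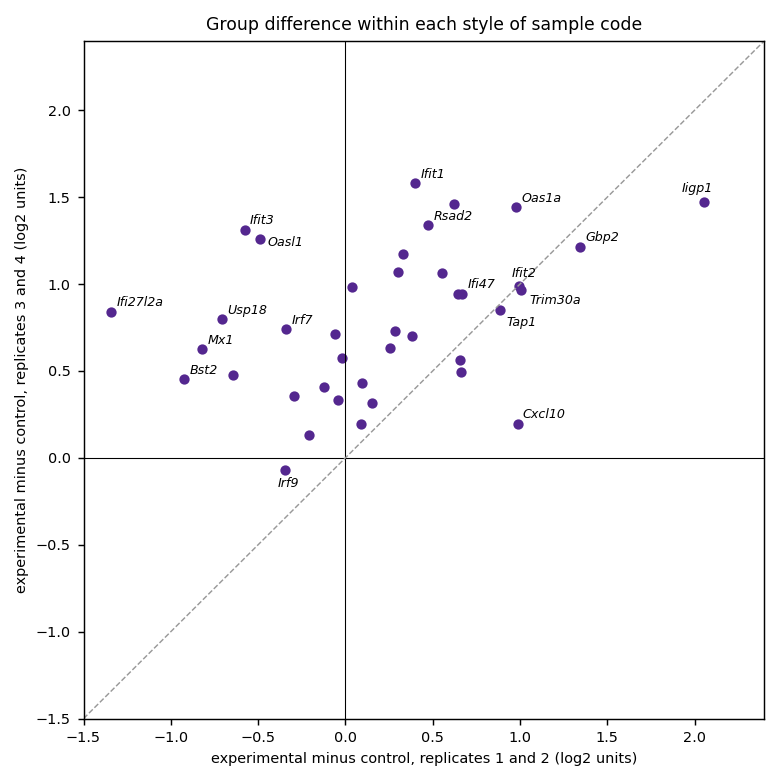
Experimental minus control in log2 units within replicates 1 and 2 (x axis) against that within replicates 3 and 4 (y axis), 1 point per gene, with the line of equality dashed. Ifit2, Tap1, Trim30a and Gbp2 lie near the line, and Ifi27l2a, Ifit3, Usp18, Mx1 and Bst2 lie to the left of 0 and above it.

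With replicate number as a block, a pairing that the labels do not state, 4 of the 39 rose (10.3%, against 3.16% of all genes): Gbp2, Ifit2, Tap1 and Trim30a. In that fit 0 fell, against 3.02% of all genes and at an unadjusted p under 0.05 also 0, against 11.4%. With code style as a block, 5 rose (12.8%; all genes 3.57%): Gbp2, Ifi47, Ifit2, Iigp1 and Tap1. Ifit2, Gbp2 and Tap1 were called in both. Within its group, experimental replicate 3 stood apart upward by Dixon's criterion (a gap to the nearest array, as a share of the group's range, above the 95% critical value) for 2 of the 39 (5.13%), Mx2 and Oasl1, as it did for 0.363% of all genes.

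Other genes of the pathway came from lists that were also chosen with earlier results known. Over all genes, 1.53% rose and 1.95% fell between the groups. With 4 arrays a group, a gene that did not pass may still differ. Of the interferon genes themselves, 0 of 6 rose and 0 fell. The list mean was 3.82 to 3.94 in the controls and 3.91 to 4.26 in the experimental arrays, and none of the 6 was highest in experimental replicate 3. These means lie under the array medians of 5.01 to 5.04. At such low values, the lack of a call says little about interferon expression. Of 6 receptor genes 1 fell: Ifnar1, a chain of the type I interferon receptor, read 8.41, 8.63, 8.43 and 8.38 in the controls and 8.01, 8.03, 8.14 and 7.93 in the experimental arrays (-0.43 ± 0.09, limma, adjusted p = 0.0427). The groups did not overlap, but Ifnar1 passed in none of the 8 fits without 1 array. None of 5 measured JAK and STAT genes passed in either direction. With code style as a block Tyk2 rose (0.34, limma, adjusted p = 0.0412), and all its experimental arrays lay above all its controls.

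Among 9 genes of double-stranded RNA sensing, 1 rose: Ikbke, a kinase that activates IRF3 and IRF7, read 7.71 to 8.44 in the controls and 9.06 to 9.76 in the experimental arrays (1.27 ± 0.21, limma, adjusted p = 0.0169). It was not highest in replicate 3. With replicate number as a block the RNA receptor gene Tlr3 rose too (0.65, adjusted p = 0.0476). Of 5 other IRF genes 1 fell, Irf4 (-1.18, adjusted p = 0.0157), and of 10 negative regulators 1 fell, Tnfaip3, which encodes an inhibitor of NF-kappaB signalling (-0.99, adjusted p = 0.0123). With code style as a block the negative regulator Pias1 fell too (-0.36, adjusted p = 0.0375). Of 53 further interferon-stimulated genes 0 rose and 1 fell, Il15 (-0.92, adjusted p = 0.0151), a cytokine of NK and memory T cells. With replicate number as a block 4 of the 53 rose, where 3.16% of all genes rose. The 4 were Isg20 (0.82, adjusted p = 0.0436), Dtx3l (0.62, 0.0415), Pml (0.58, 0.0462) and Ccl5 (1.88, 0.0199). The median difference of the 53 was 0.24, and 28 of the 53 were highest in experimental replicate 3, where 15.3% of all genes were. Of the 30 genes with the widest gap between replicate 3 and the next array, 13 were among the 39 and 6 among these 53. Those 6 included Lgals3bp, with a gap of 2.12, and Phf11d, with 1.71, beside Ifit3 at 2.84 and Ifit1 at 2.82.

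Other measures moved with the groups, and their part in these values was not tested. For the marker counts below, 1.53% of all genes rose and 1.95% fell in the main fit. With replicate number as a block the shares were 3.16% and 3.02%. In these bulk samples, fewer cells of a type and less RNA per cell cannot be told apart. Plasmacytoid dendritic cells are strong producers of type I interferon, and 3 of 6 of their markers fell (Siglech -1.29, Ccr9 -1.24, Spib -2.48). The list's mean level, which includes Bst2, ran from 7.22 to 7.67 in controls and from 5.73 to 6.81 in experimental arrays, with replicate 2 the lowest of those 4. Without Bst2, itself 1 of the 39 genes, the mean of the other 5 markers was 7.17 to 7.59 in controls and 6.36, 5.59, 6.30 and 6.499 in experimental replicates 1 to 4. Of 7 B cell markers 4 fell, and 5 with replicate number as a block (list mean 6.96 to 7.71 against 5.58 to 6.27). None of 6 monocyte markers passed, and their mean was 9.07 in experimental replicate 2 and 9.99 to 10.67 in the other 7 arrays. None of 6 NK cell markers passed, with means of 5.92 to 6.64 in controls and 5.72 to 7.14 in the experimental arrays, replicate 3 the highest. With replicate number as a block Gzmb rose (adjusted p = 0.0116). Of 7 mature neutrophil markers 3 fell, with list means of 12.03 to 12.36 in controls and 11.35 to 11.65 in experimental arrays. Of 8 immature neutrophil markers 1 rose (2 with replicate number as a block), with means of 12.56 to 13.24 and 12.98 to 13.37. Of 5 megakaryocyte markers 2 fell, Pf4 (-1.49) and Ppbp (-2.24), and 3 with that block, with list means of 6.69 to 7.32 in controls and 6.04 to 6.18 in experimental arrays. Of 6 conventional dendritic cell markers 1 fell, Cd209a (-2.37), and of 7 eosinophil, basophil and mast cell markers 2 rose, Epx (0.91) and Siglecf (1.28). None of 5 erythroid, 6 T cell and 8 marrow macrophage markers passed. The erythroid list mean was 7.46 to 7.80 in controls and 8.76, 7.98, 7.45 and 7.86 in experimental replicates 1 to 4. With replicate number as a block the erythroid marker Alas2 rose (1.10, limma, adjusted p = 0.0342). These log2 values have no zero, so no marker can be called absent.

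Of 2 signs of RNA quality, 1 differed without overlap. The 3' minus 5' value of the actin control probe sets was 0.27 to 0.32 in the controls and 0.43, 0.34, 0.46 and 0.54 in experimental replicates 1 to 4, with no overlap, and replicate 3 was not the extreme. The same value of the Gapdh control probe sets overlapped, at -0.143 to -0.0943 in the controls and -0.157, -0.142, -0.11 and 0.0294 in the experimental arrays. Of the targeted genes, E2f2 differed by -0.55 ± 0.16 (limma, adjusted p = 0.107), and its groups did not overlap. E2f1 differed by 0.58 (limma, adjusted p = 0.236), and its groups overlapped. E2f3 differed by 0.29 (limma, adjusted p = 0.201), with every experimental array above every control (7.69 to 8.07 against 7.43 to 7.67). Where the probe sets of E2f1 and E2f3 lie relative to the deleted parts was not analysed here. The medians of all tested probe sets were 5.01 to 5.04 in every array, and 466 probe sets rose and 696 fell.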

How the data were processed

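RNA of 8 sorted samples, 4 per group, was hybridised to an Affymetrix mouse array. The authors deposited log2 values per probe set made with RMA, per the submitters' processing notes; RMA corrects background, quantile-normalizes arrays and summarises probes, and its version and whether all arrays were normalized together are not given in the sources used here. Quantile normalization makes medians alike, so an array that differed in scale cannot be seen. The number of arrays limits the precision.

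Of 45101 probe sets, 64 Affymetrix controls were left out and 45037 tested. The annotation gave 34945 of these 1 gene symbol, gave 932 more than 1 and named no gene for 9160. A gene was read at its brightest probe set with 1 symbol, and 24 other probe sets of these genes serve only as a check. Among 17 genes with several probe sets, 3 (Cmpk2, Rigi and Tap1) had differences of both signs, and 19 of the 24 others were highest in experimental replicate 3. Symbols are those of the platform annotation, with Rigi listed under an older name. Array values do not compare levels between genes.

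Differences are experimental minus control, fitted with limma 3.58.1 in R 4.3.3 (lmFit, eBayes, group only), and p-values were adjusted by Benjamini-Hochberg across the whole table, with 0.05 as the threshold. Counts over all genes use 1 probe set per gene. The scripts were tested on simulated data. The members and lists were chosen with earlier results of these data known, and the counts on experimental replicate 3 after its values were seen. Any member could be named. Full statistics go to those past the threshold and to up to 10 with the largest differences, and a pathway list gives up to 4 genes past the threshold.

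The deviations of arrays from their group means correlated, across probe sets, between control and experimental arrays of the same number (0.205, 0.208, 0.264 and 0.249). Fits with replicate number as a block were therefore run as an alternative, and their values stand beside the main fit where they change a call. The labels state no pairing. The range was 0.141 to 0.257 for other numbers within a code style and -0.266 to -0.135 across styles. The first range overlaps the values for the same number, so these correlations do not tell pairing by number from a shared code style. Alternatives were other scalings, filters and variance settings, other choices of probe set, blocks, fits within code style and leaving out each array. Promoter windows are RefSeq's, on GRCm38.p6.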

Additional observations from a re-analysis of the deposited data

Results flagged for a closer look

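In 2 of the 39 genes the experimental group held an array far from the rest by Dixon's criterion. Oasl1 read 9.22 in experimental replicate 3 against 6.59 in the nearest array of its group, a gap of 0.921 of the group's range. Mx2 read 6.69 in experimental replicate 3 against 5.58, a gap of 0.967. Both are above the 95% critical value for 4 arrays, which chance exceeds in about 1 of 20 groups. Over all 18193 genes, 4.56% of experimental and 5.27% of control groups exceeded it. Ifit1, Ifit3 and Usp18, with wider gaps in log2 units, did not exceed it, and their other experimental arrays were also spread.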

How the results depend on the processing

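The median difference of the 39 genes stayed positive in all alternatives run, from 0.12 without experimental replicate 3 to 0.74 within replicates 3 and 4, and 34 or 35 of the 39 were highest in experimental replicate 3 under the scalings and probe set choices run. The count of genes past the threshold rested on few arrays. It was 1 (Ifit2), 2 after quantile normalization again, with probe sets above the median level, with a mean of at least 6 or with array weights (Ifit2 and Tap1 each time), and 0 within replicates 1 and 2 and within replicates 3 and 4, where fewer arrays enter. Leaving out 1 array gave 0 to 2 genes: 0 when control replicate 1, 2 or 3 was left out, or experimental replicate 2 or 3, Gbp2 alone without control replicate 4 or experimental replicate 1, and Ifit2 and Tap1 without experimental replicate 4. Of these fits, the share of all genes called was computed only without experimental replicate 3 (1.18% higher and 1.31% lower). Genes with no overlap between the groups numbered 4, and 7 after quantile normalization again. Without 1 array they numbered 4 to 10 (10 without control replicate 4 or experimental replicate 1). Fewer arrays make a lack of overlap easier to reach. Its share over all genes, 5.62%, was computed only in the main setting, so the counts of 7 and 10 have no such comparison. The fits within a code style counted here used the arrays of that style alone, unlike the pooled fit behind the shares of all genes given earlier for each style. All probe sets past the threshold numbered 1162, against 395 to 1744 without 1 array, 130 within replicates 1 and 2 and 418 within replicates 3 and 4. For these counts the cause was not tested. Differences of the single genes kept their sign or changed it only below the threshold. Scaling moved the median of all genes from 0.01 to 0.03 at most.

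With the replicate block, 4 of the 39 genes and 2277 probe sets passed, and with code style as a block 5 and 2582. The block lost no call among the 39 genes.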

Other observations

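Genes outside the list of 41 also stood highest in experimental replicate 3, and those named here were chosen after their values were seen. Of the 30 genes with the widest gap to the next array, 11 belonged to neither the 39 genes nor the pathway lists. Among them, Ifi213, of the same gene family as Ifi204, read 7.83 against a highest other value of 5.59. Fcgr1, which encodes the high-affinity receptor for IgG, read 9.02 against 7.71, and the scavenger receptor gene Msr1 read 8.85 against 7.78. The nucleic acid helicase gene Ddx60 read 9.09 against 8.10.

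Slfn5, a Schlafen family gene induced by interferon, read 6.70, 6.34, 6.21 and 6.79 in the controls and 4.56, 5.16, 8.28 and 4.98 in the experimental arrays. The other 3 experimental arrays were below every control and replicate 3 above them all. The group difference was -0.76 ± 0.68 (SE, limma, adjusted p = 0.630), and without replicate 3 it was -1.61 (adjusted p = 0.00963). Both the gene and the array left out were picked from these same values. The p-value without replicate 3 therefore cannot count as a test of a fall. Gzmb, a cytotoxic granule protease gene, read 5.10, 5.22, 5.95 and 6.42 in the controls and 7.51, 6.33, 8.49 and 7.66 in the experimental arrays, also highest in replicate 3, with a difference of 1.82 ± 0.43 (adjusted p = 0.0610, and 0.0116 with replicate number as a block).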
